A study of Mus musculus with 28 samples.

Results

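A set of 159 genes had a transcript level at or below 0.5 of its start within 12h of C/EBPα activation and was back at, or above, 0.8 of the start by 48h. They were picked from the RNA-seq expression table of 55450 genes, in which each library had been put on a common scale by the median of its ratios to the average library. A gene was a member when its 0h mean was at least 2 scaled TPM, the lower of its 1h and 12h means was at most 0.5 of the 0h mean, its 48h mean was at least 0.8 of the 0h mean, and its symbol did not begin with Gm and a digit, Mir, Sno, Rn or mt-. The same values that chose the genes are therefore described here and carry no test.

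The cells were C10, a single Pre-B line of mouse that goes back to HAFTL, fetal liver cells transformed with a Ha-ras virus, and it carries the C/EBPαER transgene, the C/EBPα protein joined to the hormone-binding domain of the estrogen receptor. All groups carry this transgene. Cells were taken before treatment (0h) and after 1h, 12h and 48h of β-estradiol at 100 nM. It was given with 2 cytokines, IL-3 at 10 nM and CSF-1. RNA-seq has 3 replicates per time point, 12 libraries in all, and promoter Capture Hi-C (PCHi-C), which lists the fragments that touch captured promoters, has 2 replicates merged into 1 list per time point. The labels call the RNA replicates biological but do not say that they come from separate cultures, so any p-value measures the spread between these libraries, which may be technical in part. No library without the transgene or without estradiol at 1h, 12h or 48h was used, so C/EBPα activation, the added hormone and cytokines, and time cannot be told apart.

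C/EBPα is a basic leucine zipper transcription factor of the myeloid lineage, and when forced into B-lineage cells it turns them into macrophage-like cells. Such a switch combines a quick silencing of lymphoid genes with a slower build-up of phagocytic, lysosomal and inflammatory genes. Many genes of signalling, adhesion and innate sensing are used by both B cells and macrophages, and short-lived transcripts such as Fos follow changes in transcription within minutes. In bulk RNA, fewer cells with a transcript and less RNA per cell cannot be told apart.

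The Pre-B markers summed to 331 to 357 scaled TPM in the 0h libraries and 42.9 to 51.1 at 48h, while the 12 macrophage markers went from 13.1 to 15.9 up to 1522 to 1815. Cd68, a macrophage marker of the lysosome membrane, is itself a member. T cell and erythroid markers stayed below 1 in sum in every library, and the 9 neutrophil markers summed to at most 0.587 at 0h, 9.04 to 12.6 at 12h and 2.58 to 6.15 at 48h. The part of other cell types in the results was not tested. The mean size factors of 0h, 1h, 12h and 48h were 0.930, 1.47, 1.18 and 0.699, so scaling lowered 1h values and raised 48h values relative to the deposited TPM. Among the 5952 genes at or above 2 at 0h with an allowed symbol, the median ratio to 0h was 0.868, 0.822 and 0.744 at 1h, 12h and 48h after scaling, and 1.37, 1.04 and 0.561 in the deposited TPM.

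The promoter windows below are shown because these genes carry the main patterns and their windows hold no annotated exon. Of the 159 members, 119 matched a RefSeq promoter window by symbol and 1 by an older symbol. Each line gives the 250 bases before an annotated start, 5′ to 3′ on the gene's strand, from RefSeq on GRCm38.p6, and capitals mark matches on either strand to the motifs described next.
Fos (chr12:85473640-85473889, plus strand): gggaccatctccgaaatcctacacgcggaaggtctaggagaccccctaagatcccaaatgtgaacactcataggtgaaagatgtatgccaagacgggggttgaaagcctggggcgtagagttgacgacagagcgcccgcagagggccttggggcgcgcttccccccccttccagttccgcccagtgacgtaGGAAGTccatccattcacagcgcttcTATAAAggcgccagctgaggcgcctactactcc
Irf8 (chr8:120736108-120736357, plus strand): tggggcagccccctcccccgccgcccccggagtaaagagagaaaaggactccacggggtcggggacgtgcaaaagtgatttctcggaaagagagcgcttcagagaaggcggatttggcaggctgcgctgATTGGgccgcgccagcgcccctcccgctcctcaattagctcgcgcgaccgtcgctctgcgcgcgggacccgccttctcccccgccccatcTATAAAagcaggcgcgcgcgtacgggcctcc
Jund (chr8:70697489-70697738, plus strand): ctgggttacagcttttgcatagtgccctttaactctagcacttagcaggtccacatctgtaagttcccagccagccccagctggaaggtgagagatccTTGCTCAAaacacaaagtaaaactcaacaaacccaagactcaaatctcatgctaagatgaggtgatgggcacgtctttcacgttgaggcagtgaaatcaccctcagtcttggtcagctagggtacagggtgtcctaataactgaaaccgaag
Cyth4 (chr15:78596797-78597046, plus strand): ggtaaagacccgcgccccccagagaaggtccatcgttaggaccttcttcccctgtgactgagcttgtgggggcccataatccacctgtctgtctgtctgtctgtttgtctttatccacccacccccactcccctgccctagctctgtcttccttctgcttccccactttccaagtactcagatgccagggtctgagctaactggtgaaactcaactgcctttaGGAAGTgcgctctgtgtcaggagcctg
Cd180 (chr13:102693297-102693546, plus strand): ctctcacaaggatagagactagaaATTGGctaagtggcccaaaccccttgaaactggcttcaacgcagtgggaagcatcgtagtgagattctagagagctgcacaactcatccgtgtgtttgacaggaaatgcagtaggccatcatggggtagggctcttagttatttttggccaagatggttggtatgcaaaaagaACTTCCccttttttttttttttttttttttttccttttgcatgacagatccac
Cd68 (chr11:69666171-69666420, minus strand): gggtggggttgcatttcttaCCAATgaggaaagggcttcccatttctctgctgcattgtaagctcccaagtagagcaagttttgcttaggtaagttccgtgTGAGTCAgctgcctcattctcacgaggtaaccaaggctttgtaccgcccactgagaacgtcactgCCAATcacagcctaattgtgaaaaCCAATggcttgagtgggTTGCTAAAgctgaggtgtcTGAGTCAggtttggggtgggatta

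Motifs were searched on both strands as exact letters, with N for any base. C/EBP (TTGCNNAA) was found in 15 of 120 members (12.5%), against 8.96% of the 4778 genes at or above 2 at 0h and 10.8% of all 27025 genes with a window. AP-1 (TGANTCA), the site of Fos and Jun proteins, was in 6.67% of members, 4.67% of genes at or above 2 and 7.82% of all. The E-box (CACGTG) was in 10.0%, 11.2% and 6.86%, and the NF-Y letters (CCAAT) were in 43.3%, 41.4% and 37.5%. ETS letters (GGAAGT), bound by PU.1 and its relatives, were in 29.2% of members, 29.2% of genes at or above 2 and 22.2% of all windows. The nuclear receptor letters (AGGTCA) were in 14.2%, 12.5% and 15.8%, FoxO letters (GTAAACA) were in 3.33%, 2.43% and 3.54%, and TATAAA was in 8.33%, 7.68% and 14.3%. The CRE (TGACGTCA) was in 1 member, Ppp1r15a, or 0.833%, against 3.31% and 1.77%. Fos has TATAAA 33 bases and ETS letters 59 bases before its start, and Irf8 has TATAAA 31 bases before its start. Cd68 has C/EBP letters 43 bases before the start and AP-1 letters at 24 and 149 bases. The Jund window has C/EBP letters 152 bases before the RefSeq start it is built on, and that start lies 1210 bp upstream of the GENCODE start of Jund, so the window is not the sequence just before the latter. One window, of Pip4p1, had different motifs that shared bases, NF-Y with ETS. The windows' GC content had a median of 58.8% for members and 60.4% for genes at or above 2, and CpG dinucleotides had a median of 11 against 17. These matches describe letters in the windows only.

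The dips fall into 3 patterns. In 114 members only the 1h mean was at or below 0.5 of 0h, in 22 only the 12h mean was, and in 23 both were. Seen from the other side, 1422 genes at or above 2 dipped this far, and 159 (11.2%) returned to 0.8, a further 159 ended between 0.5 and 0.8, and 1104 ended at or below 0.5. Split by the time of the dip, 114 of 193 genes at or below 0.5 at 1h only (59.1%) were members. The counts were 22 of 1005 (2.19%) at 12h only and 23 of 224 (10.3%) at both. Since the 48h value is part of the rule, these shares are descriptions, counted on the scaled values. Scaling lowered 1h values and raised 48h values relative to the deposited TPM. On deposited TPM the rule gave 19, 10 and 4 genes at 1h only, 12h only and both. The share of all 5952 genes at or above 2 that stood at 0.8 or more at 48h is not given here. Their median 48h ratio was 0.744, so how unusual the shares are was not tested.

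**Figure D1:**
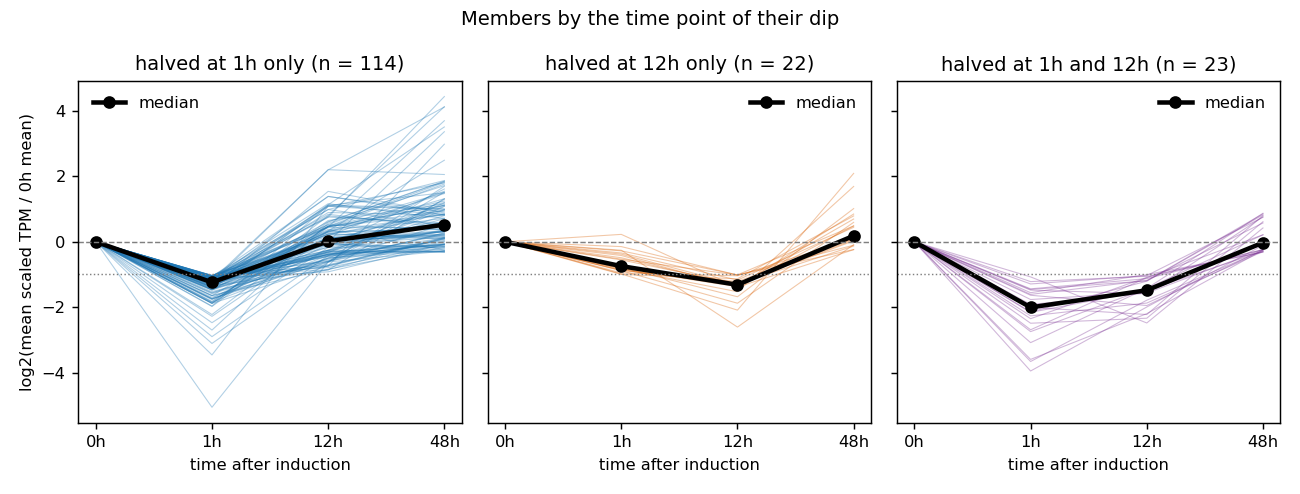
Mean scaled TPM of each member relative to its 0h mean (log2, y axis) at 0h, 1h, 12h and 48h (x axis), in 3 panels by dip time, with 1 thin line per member, the median in black, the 0h level dashed and the halving threshold dotted. A ratio of 0 (Rpl36a-ps3 at 1h) has no log2 and is drawn at a fixed floor. The median of the 114 members halved at 1h only is 0.423, 1.01 and 1.44 of 0h at the later times on the linear scale.

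Members halved at 1h only had median ratios to 0h of 0.423 at 1h, 1.01 at 12h and 1.44 at 48h, and 79 of the 114 were already at 0.8 or more at 12h. Members halved at 12h only were intermediate at 1h (median 0.597), lowest at 12h (0.402) and at 1.14 by 48h, and 21 of these 22 were below their 0h mean at 1h. The 23 members halved at both times went deepest, with medians of 0.249, 0.358 and 0.982, and 19 of them were lower at 1h than at 12h. Over all members, 119 ended above their 0h mean, 39 at 2 times or more and 6 at 10 times or more. In 150 members all 3 libraries of the lowest time lay below all 0h libraries. That time was picked per gene from the same means, and no share of all genes is given for it. By time point, 140 members had all 1h libraries below all 0h libraries, as had 16.4% of all genes tested, and 65 had all 12h libraries below them, as had 21.5%. Against 48h, 143 members had all 1h libraries lower (25.0% of all genes) and 87 all 12h libraries lower (17.8%). In 63 members all 48h libraries lay above all 0h libraries, against 27.8% of all genes.

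Across the scaled values, limma (log2 of scaled TPM plus 0.1), with a Benjamini-Hochberg threshold of 0.05 and a change beyond 1 on the log2 scale, called 111 members lower at 1h than 0h, where 2.86% of 16212 genes tested were called lower. The same call gave 33 members on deposited TPM and 57 with a pseudocount of 1. All shares of genes called in this paragraph are for the main setting, and those under other settings are not given here. At 12h it called 34 lower (19 on deposited TPM and 20 with a pseudocount of 1), against 9.52% of all genes, and 11 higher, against 12.1%. At 48h it called 35 higher, against 20.1%. From 1h to 12h it called 81 higher, against 7.82%, and 4 lower, against 5.61%. No member was called lower at 48h, against 17.8% of all genes. The rule's lower limit on the 48h mean all but excludes such a call, so its absence is no separate result. No member had an unadjusted p under 0.05 in that direction in limma, which the same limit also makes less likely. The rule used these contrasts, so the counts only restate the choice of genes. All 159 members passed the filter on low values.

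On the deposited TPM all 159 members still had a lowest mean below 0h, but only 50 were at 0.5 or less. At 48h 113 were at 0.8 or more and 80 were above their 0h mean, compared with 119 after scaling, so the return was not on the same side of 0h for all of them. The median 48h ratio was 1.08 instead of 1.44 for members halved at 1h only, 0.836 instead of 1.14 at 12h only and 0.737 instead of 0.982 at both. The full rule on deposited TPM gave 33 genes, all of them members. On that scale 82 members had all 1h libraries below all 0h libraries (3.32% of all genes) and 42 had all 12h libraries below them (12.5%). All 1h libraries lay below all 48h libraries in 85 members (9.63%), all 12h libraries did so in 46 (6.07%), and all 48h libraries lay above all 0h libraries in 39 (19.7%). The plot of both scales shows this shift. Of the members named in the text, Bcl2l1, Ccnd1, Cd180, Cd69, Cyth4, Dcp2, Dok2, Evl, Fos, Ighv1-55, Il4ra, Irf5, Irf8, Itga6, Lgmn, Lhx2, Ly6e, Nrros, Pml, Ptgs1, Ptpn6, Rprl1, Rprl2, Rps27rt, Tmem173 and Zfp36l2 are among these 33. Every other member named misses at least 1 limit of the rule on deposited TPM, and its halving or return is described on the scaled values only.

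**Figure D2:**
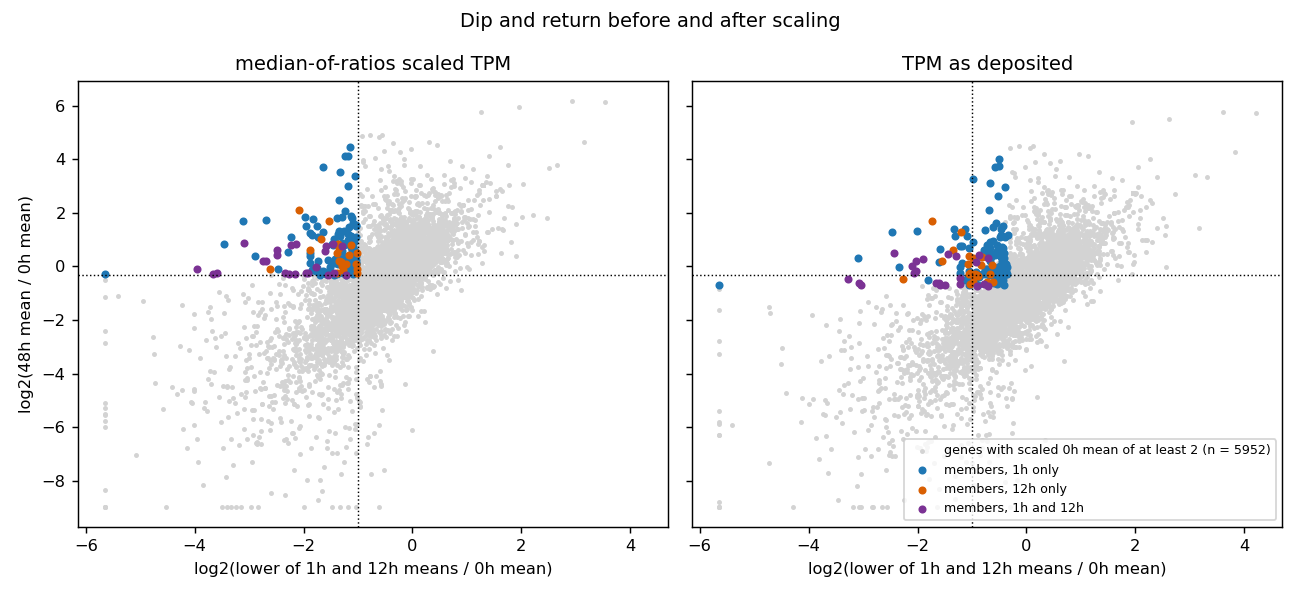
Lower of the 1h and 12h means (x axis) and the 48h mean (y axis), each over the 0h mean as log2, for 5952 genes at or above 2 scaled TPM at 0h (grey) and the 159 members by dip time (colours), scaled on the left and as deposited on the right. Dotted lines mark 0.5 and 0.8, and ratios of 0 are drawn at the left and bottom edges of the points. Scaling moves the cloud, and 33 members meet both limits without it.

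Transcription factors and their partners gave 22 members, 17 of them halved at 1h only. Fos (ENSMUSG00000021250, chr12:85473890-85477273), an AP-1 subunit and the model immediate early gene, had 11.4, 11.5 and 10.6 scaled TPM at 0h, 0.995, 1.33 and 1.55 at 1h, 6.47, 7.66 and 7.60 at 12h, and 31.4, 34.3 and 42.7 at 48h. Its 1h libraries lay below all others, and its 48h libraries lay above all others. The 1h mean was 0.116 of 0h and the 48h mean 3.24, with 0.181 and 2.45 on deposited TPM. Jund, another AP-1 subunit, had a 1h ratio of 0.440 and a 48h ratio of 1.97, with deposited ratios of 0.70 and 1.51.

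Irf8 (ENSMUSG00000041515, chr8:120736358-120756694), an interferon regulatory factor that both B cells and macrophages need, had 18.9, 19.2 and 23.1 scaled TPM at 0h, 6.42, 4.07 and 6.06 at 1h, 11, 13.1 and 12.8 at 12h, and 18.4, 18 and 30.9 at 48h. At 48h its first 2 libraries sat just below the 0h libraries and the third above them, so 48h and 0h overlapped while 1h and 12h lay below both. Irf5, a factor of inflammatory macrophages, went lower and then higher: 3.14, 4.22 and 5.56 at 0h, 0.667, 0.575 and 0.746 at 1h, 6.58, 5.39 and 7.18 at 12h, and 13.8, 13.0 and 15.7 at 48h. Gfi1b, a repressor of erythroid and early hematopoietic cells, had 3.55, 4.15 and 5.73 at 0h and 0.270, 0.275 and 0.324 at 1h, a ratio of 0.0647 and the lowest at 1h among the members halved at both times. It was back at 3.30, 4.77 and 4.40 at 48h, a ratio of 0.929 that is 0.716 on deposited TPM. Pou2f2 (OCT-2), a B cell octamer factor, ran from 2.17, 2.22 and 1.73 down to 0.167, 0.0981 and 0.219 at 1h and was at 1.71, 1.39 and 1.98 at 48h. Its 48h ratio of 0.831 is 0.621 on deposited TPM. Lhx2, a LIM homeobox factor, Hoxb7 and Hhex were homeobox members too.

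Lhx2 was one of 4 members halved at both times that stood lower at 12h. Its libraries had 15.6, 18 and 19.3 at 0h, 8.88, 8.17 and 8.10 at 1h, 2.37, 3.40 and 3.71 at 12h, and 20.4, 24.1 and 26.4 at 48h. Its 12h ratio was 0.179 and the 48h ratio 1.34. Pml, which builds nuclear bodies and is interferon inducible, had a 1h ratio of 0.298 and ended at 2.87. Per1 is a clock gene at 0.308 at 1h and 0.805 at 48h, just inside the limit, and at 0.610 on deposited TPM.

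Cell cycle and transcript stability genes had some of the largest moves. Ccnd1 (ENSMUSG00000070348, chr7:144929931-144939925), the cyclin that takes growth signals into G1, had 14.7, 20.3 and 22.9 scaled TPM at 0h, 1.79, 1.98 and 3.02 at 1h, 7.44, 7.77 and 6.29 at 12h, and 34.6, 34.6 and 36.6 at 48h. Each time point's libraries were apart from those of the other 3. Zfp36l2 (ENSMUSG00000045817, chr17:84183931-84187947), a zinc finger protein that speeds the decay of AU-rich mRNAs, had 27.1, 26.4 and 31.4 at 0h, 4.18, 3.96 and 5.07 at 1h, 13.6, 12.9 and 13.1 at 12h, and 29.5, 31.4 and 37.9 at 48h, so that 0h and 48h overlapped. Its 12h ratio of 0.467 is 0.593 on deposited TPM. Dcp2, the decapping enzyme, was halved at 12h only, with means of 3.79, 4.43, 1.45 and 5.31 in the order of time. Ppp1r15a (GADD34), a stress-induced phosphatase subunit for eIF2α, had 5.76, 7.04 and 6.43 at 0h, 1.38, 1.28 and 1.64 at 1h, 2.51, 2.39 and 1.97 at 12h and 5.86, 4.47 and 5.41 at 48h, where its ratio of 0.819 is 0.615 on deposited TPM. Bcl2l1 (BCL-XL), which protects from apoptosis, had means of 10.4, 3.14, 11.5 and 11.9, and Casp8 and Bid, which promote it, had lowest ratios of 0.40 at 1h and 0.496 at 12h, or 0.626 and 0.646 on deposited TPM.

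**Figure D3:**
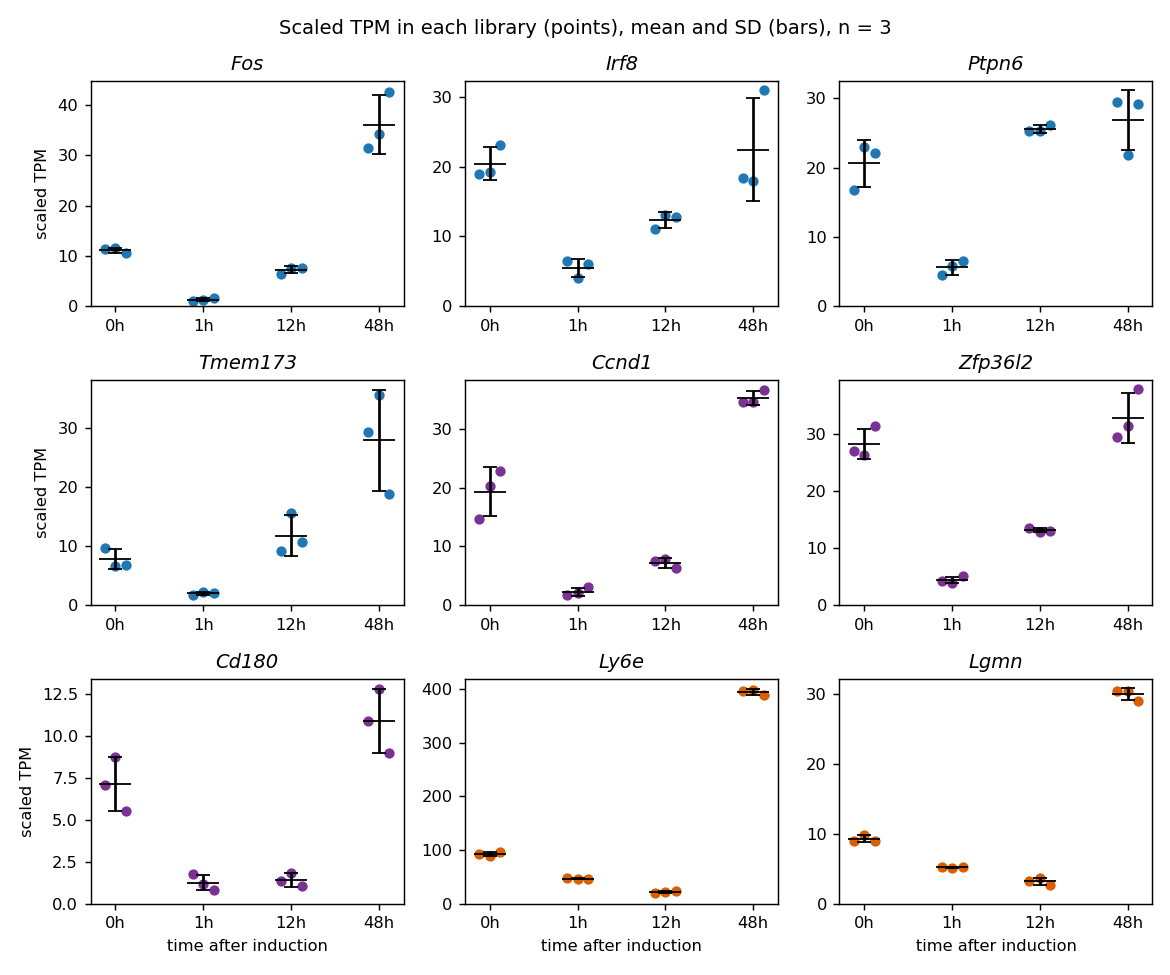
Scaled TPM (y axis) of 9 members at 0h, 1h, 12h and 48h (x axis), with 1 point per library, the mean as a wide bar and the SD as a capped bar (n = 3). Blue genes were halved at 1h only, purple at 1h and 12h, and orange at 12h only; the y axis starts at 0 and differs between genes. Every gene's lowest libraries sit under its 0h and 48h libraries.

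Signalling enzymes and adaptors gave 19 members, 17 of them halved at 1h only. Ptpn6 (SHP-1; ENSMUSG00000004266, chr6:124720707-124738714), a phosphatase that damps immune receptor signals, had 16.7, 23.0 and 22.1 scaled TPM at 0h, 4.45, 5.81 and 6.58 at 1h, 25.2, 25.3 and 26.2 at 12h, and 29.5, 21.8 and 29.1 at 48h. At 1h all libraries lay below the rest, and by 12h they were above all 0h libraries. Its 1h ratio was 0.272, and 0.431 on deposited TPM. Dok1 and Dok2, docking proteins of the same inhibitory kind, had 1h means of 1.07 and 0.761 against 0h means of 2.61 and 2.79. Pik3cd and Pik3cg, the leukocyte PI3K catalytic subunits, had 1h ratios of 0.40 and 0.423 (0.638 and 0.657 on deposited TPM) and 48h ratios of 1.63 and 1.26. Inppl1 (SHIP2), a phosphatase that removes the PI3K product, was halved at both times, at 15.1, 5.57, 6.92 and 12.8, and its deposited ratios of 0.585, 0.579 and 0.635 pass neither limit.

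GTPase regulators and cytoskeletal genes were the largest group, at 27 members, 21 of them halved at 1h only. Cyth4, an ARF exchange factor of blood cells, had 9.11, 12.5 and 12.1 at 0h, 3.31, 2.47 and 3.63 at 1h, 17.6, 18.6 and 16.6 at 12h, and 24.4, 20 and 30.7 at 48h. From 12h on its libraries were all above 0h. Evl, an actin filament protein, had means of 4.51, 1.16, 9.75 and 12.8. Arhgap45, Arhgap9, Arhgap17 and Arhgap18 are GTPase activating proteins, which had 0h means of 7.94, 2.94, 5.74 and 3.66 and 1h means of 2.86, 1.31, 2.09 and 1.76. Marcksl1 had the deepest 12h dip of the members halved at 12h only, at a ratio of 0.164 from a 0h mean of 3.49. Hras, the small GTPase, had 903, 965 and 1015 at 0h, 566, 536 and 598 at 1h, 389, 403 and 413 at 12h, and 910, 938 and 1152 at 48h. Its 12h and 48h ratios are 0.532 and 0.790 on deposited TPM. The HAFTL line was made with a viral Ha-ras gene, and reads from that gene and the mouse one cannot be told apart in these values.

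Surface receptors gave 14 members, 13 of which ended above their 0h mean. Cd180 (ENSMUSG00000021624, chr13:102693558-102739629), a Toll-like receptor relative on B cells and macrophages, had 7.07, 8.74 and 5.51 scaled TPM at 0h, 1.76, 1.19 and 0.844 at 1h, 1.33, 1.86 and 1.03 at 12h, and 10.9, 12.8 and 8.99 at 48h. Both middle time points lay below, and 48h lay above, every 0h library. Ly6e (ENSMUSG00000022587, chr15:74955051-74959905), a lipid-anchored surface protein induced by interferon, was halved at 12h only, with 93.0, 89.1 and 95.7 at 0h, 48.0, 46.5 and 46.1 at 1h, 20.2, 22.1 and 22.9 at 12h and 397, 399 and 388 at 48h. Its 1h ratio of 0.506 sits just outside the limit and 0.235 at 12h inside it. Cd69, an early activation antigen of lymphocytes, had 11.2, 9.28 and 6.41 at 0h, 5.42, 5.30 and 4.44 at 1h, 3.58, 3.45 and 3.33 at 12h and 17.2, 16.9 and 14.1 at 48h. Itga6, the laminin-binding α6 integrin, had 8.26, 8.02 and 8.15 at 0h and 3.90, 3.17 and 2.53 at 12h, and its 48h libraries (13.0, 8.52 and 6.55) overlapped 0h. Il4ra, the receptor chain for IL-4 and IL-13, had means of 3.35, 0.717, 4.59 and 7.22. Ceacam1 and Tnfrsf14 stood out for their 12h level, 18.1 and 8.49 against 3.94 and 3.25 at 0h.

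Innate sensing genes gave 7 members, all halved at 1h only, and all of them ended above 0h on both scales. Tmem173 (STING; ENSMUSG00000024349), the adaptor for cytosolic DNA, had 9.71, 6.68 and 6.84 scaled TPM at 0h, 1.76, 2.16 and 1.98 at 1h, 9.06, 15.6 and 10.6 at 12h, and 29.2, 35.6 and 18.7 at 48h. Nrros, which anchors latent TGF-β on myeloid cells, had 7.23, 9.21 and 10.2, then 1.84, 1.80 and 1.84, then 7.57, 11.6 and 10.7, and 10.5, 9.06 and 19.0. Its 3 libraries at 1h were nearly equal. Unc93b1, which carries nucleic acid sensing Toll-like receptors to endosomes, had 9.53, 13.4 and 9.50 at 0h, 4.61, 4.05 and 4.05 at 1h, 14.7, 14.0 and 12.2 at 12h and 53.8, 60.7 and 68.0 at 48h, with a deposited 1h ratio of 0.623. The interferon-induced genes Ube2l6 and Irgm1 and the gene 9930111J21Rik2 ended at 63.2, 37.1 and 26 from 0h means of 2.91, 2.12 and 2.00. On deposited TPM their 1h ratios were 0.706, 0.667 and 0.507.

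Lysosomal and lipid mediator genes gave 9 members. Lgmn (ENSMUSG00000021190, chr12:102394084-102439813), the asparagine-specific protease of lysosomes, had 8.96, 9.85 and 9.01 at 0h, 5.24, 5.13 and 5.25 at 1h, 3.31, 3.63 and 2.70 at 12h and 30.5, 30.4 and 29.0 at 48h. All 4 time points were apart. Ptgs1 (COX-1), which makes prostaglandin H, had 6.20, 7.41 and 5.93 at 0h, 0.860, 1.33 and 0.724 at 1h and 3.12, 1.85 and 2.30 at 12h. At 48h its libraries were spread from 3.02 to 11.9 and overlapped 0h. Alox5ap, the leukotriene cofactor, had means of 2.63, 1.16, 12.1 and 45.7. Cd68 had 2.74, 2.68 and 2.1 at 0h, 1.62, 0.948 and 1.04 at 1h and 24.2, 25.2 and 28.4 at 48h, and its 1h ratio of 0.480 is 0.759 on deposited TPM. Cst7 (cystatin F), a cathepsin inhibitor of leukocytes, had means of 5.79, 1.87, 1.5 and 4.89, and its 48h ratio of 0.845 is 0.642 on deposited TPM.

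Metabolic and transport genes gave 20 members and 8 of the 22 halved at 12h only. Odc1, the first enzyme of polyamine synthesis, had 38.8, 35.5 and 29.3 at 0h, 20.3, 19.4 and 16.9 at 1h, 14.4, 14.8 and 15.5 at 12h and 44.3, 33.3 and 32.3 at 48h, with deposited 12h and 48h ratios of 0.542 and 0.781. Prps2, which makes the ribose donor for nucleotides, had means of 2.81, 2.16, 1.13 and 3.10. Serinc3, a membrane protein grouped with no role here, followed the same course at 72.7, 68.2 and 65.8, then 39.5, 36.9 and 36.7, then 28.5, 26.9 and 28.6, and 70.9, 73.8 and 66.4. Its deposited 12h and 48h ratios are 0.513 and 0.764.

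Olfm1 and Plac8 had large end levels among members of no clear shared role. Olfm1 had 5.54, 6.23 and 7.03 at 0h, 2.40, 2.13 and 2.97 at 1h and 73.7, 70.4 and 70.0 at 48h, a ratio of 11.4. Plac8 had 11.7, 16.4 and 18.8 at 0h, 5.60, 6.47 and 8.64 at 1h and 102, 97.3 and 171 at 48h. On deposited TPM their 1h ratios are 0.630 and 0.70. These role groups were set by hand with the values known, and no group was compared with chance.

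Some members rest on weak values. At 0h, 98 of the 159 were below 5 scaled TPM. Members with a library at 0 were Rpl36a-ps3, Rps27rt, Rprl1, Scp2-ps2 and Ighv1-55. Rps27rt had 16.5, 0 and 0 at 0h, 0, 0 and 1.5 at 1h, 0, 11.4 and 23.8 at 12h, and 0, 29.6 and 0 at 48h, so its means describe single libraries. It is a retrotransposed copy, and Rprl1 and Rprl2 are related copies, so their reads can be split between near-identical genes. Rprl2, an RNase P RNA-like gene, had 118, 98.7 and 43.5 at 0h and 31.7, 26.6 and 12.3 at 1h. The exons of 53 members overlap another gene (10 on the same strand, 46 on the other), and reads of an unstranded library cannot be given to either. Just inside the thresholds were 9930111J21Rik2, Relt and Fam78a at 2.00 to 2.02 at 0h, Bid, Cox14 and Kpna3 at 0.496, 0.494 and 0.494 at their lowest, and Pip4p1, Scarna10 and Per1 at 0.802, 0.803 and 0.805 at 48h. Just outside were 4933439C10Rik, B3gnt7 and Egr2 at 1.99, 1.99 and 1.93, Sord and S100a13 at 0.501 each, and Ier5, Abi3 and Ptdss2 at 0.799, 0.794 and 0.792.

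By annotation 151 of the 159 (95%) are protein coding, against 97.2% of the genes at or above 2. Single-exon genes were 5.03% of members and 3.38% of that set. The median exonic length was 3901 bp for members and 4507 bp for that set. Members lie on 20 chromosomes, and 8 neighbouring pairs lie under 200 kb apart, such as Jund and Mast3 on chromosome 8, Sh3bp1 and Lgals1 on chromosome 15, and Bc1 and Ccnd1 on chromosome 7.

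Promoter contacts were not used by the rule. Of the 159 members, 146 have a captured promoter fragment, and these had a median of 12.0 listed interactions before induction and 11, 11 and 10.0 after 1h, 12h and 48h. The 5564 genes at or above 2 with a captured promoter had 9.0, 9.0, 8.0 and 8.0. The lists come from merged replicates, so there is no test and the difference has no replicate check. With a score of at least 10 at 0h, the median was 1.00 in both sets. Fewer interactions than at 0h were listed for 55.5% of members at 1h, 52.7% at 12h and 59.6% at 48h, compared with 47.4%, 54.0% and 54.0% of the genes at or above 2. Members halved at 1h only had a median of 12.0, 11, 11 and 9.0 interactions, those halved at 12h only 11, 11, 7.0 and 7.0, and those halved at both times 18.5, 12.0, 11.5 and 13.5.

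**Figure D4:**
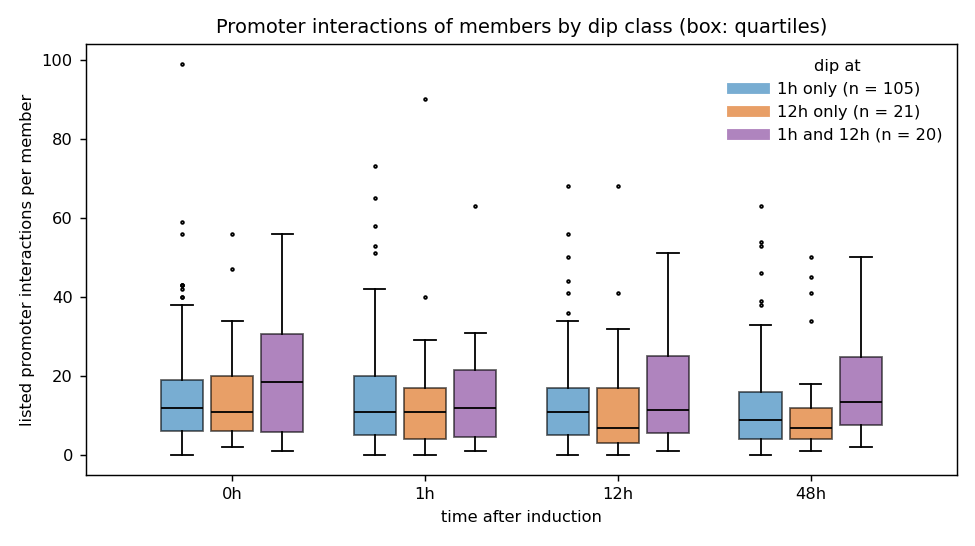
Listed promoter interactions per member (y axis) at 0h, 1h, 12h and 48h (x axis) for 105 members halved at 1h only, 21 halved at 12h only and 20 halved at both; boxes give quartiles, lines medians, whiskers the values within 1.5 times the box height and dots the rest. The 3 classes overlap at every time point.

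Of 2347 interactions of members at 0h, 61.1% (95% Wilson interval 59.1 to 63.1) were listed at 1h, 57.9% (55.9 to 59.8) at 12h and 55.8% (53.8 to 57.8) at 48h. Among the genes at or above 2, which include the members, these shares were 59.8%, 53.8% and 55.1%. At 12h the members' interval lay above theirs (53.4 to 54.2). These intervals take every interaction as independent, though many share a promoter fragment, so they are too narrow to judge the difference. No replicate checks it. Among interactions with a score of at least 10 the 12h share was 87.8% (84.9 to 90.3) for members and 85.7% (85.1 to 86.3) for the genes at or above 2, so there the intervals overlapped. When the other end was allowed to lie within 10 kb the members' shares were 82.8%, 81.2% and 77.5%, against 83.5%, 78.6% and 76.5%. At 1h members were below the comparison genes, whose share lay inside the members' interval (81.2 to 84.3). Of the 1309 interactions of members listed at both 0h and 48h, 299 (22.8%, interval 20.6 to 25.2) were absent from the 1h list and 280 (21.4%, 19.3 to 23.7) from the 12h list. Among the genes at or above 2 the shares were 24.6% and 25.1%.

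Single genes differed. In the order 0h, 1h, 12h and 48h, Cd69 had 56, 90, 68 and 45 listed interactions, 34 of them in all 4 lists, while its transcript was lowest at 12h. Ccnd1 had 40, 30, 43 and 27. Zfp36l2 had 39, 31, 35 and 50, and Fos had 13, 19, 16 and 19. Arhgap45 had 13, 38, 28 and 21. Ptpn6 had 21, 20, 7 and 6, and Nrros had 17, 12, 9 and 5, although the transcripts of both were back at 12h. Tmem173 had 7, 5, 4 and 0, and Irf8 had 20, 16, 15 and 15. Contacts between the baits of different members were few, with 2 in the 0h list, 1 at 1h, 4 at 12h and 1 at 48h. Sh3bp1 and Lgals1 were joined at 1h, 12h and 48h, Jund and Mast3 at 0h and 12h, and Eng and Sh2d3c at 12h.

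For comparison, genes of related pathways that are no members were tested. Genes that met the rule are left out of these counts by construction, so the counts are no background for the members. The 10 pathway lists hold 310 genes, of which 16 are members and 280 others were tested with limma. Of these 280, 22 were called higher and 48 lower at 1h, 54 and 131 at 12h, and 76 and 150 at 48h (limma, Benjamini-Hochberg adjusted p under 0.05), where the share of all genes called was 4.05% and 2.86%, 12.1% and 9.52%, and 20.1% and 17.8%. On deposited TPM the 1h split was 39 higher and 27 lower. Of 28 other immediate early and MAPK feedback genes, beside the members Fos, Jund and Ppp1r15a, 7 were called lower at 1h, 4 of them on deposited TPM too, and 5 higher. Fosb, a relative of Fos, changed by a log2 of -4.0 (SE 0.20, limma adjusted p 1.70e-06) from 11.5 ± 0.864 to 0.629 ± 0.122 (SD, n = 3) scaled TPM at 1h and stood at 2.17 at 48h.

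Lymphoid surface and signalling genes had 4 members, and of the 33 others 16 were lower at 1h (11 on deposited TPM) and 2 higher, and 24 were lower at 12h and 18 at 48h. Il7r, the IL-7 receptor chain that Pre-B cells rely on, went from 8.06 to 0.696 at 1h and 0.00938 at 12h, with a log2 change of -3.49 (SE 0.35, limma adjusted p 0.000103) at 1h. Lineage transcription factors had 5 members, and of 34 others 16 were lower and 6 higher at 1h, with 19 lower at 12h and 20 at 48h. Of those 16, 10 kept the call on deposited TPM, and Bach2, Hes1, Ikzf1, Pax5, Pou2af1 and Tcf3 lost it. Hoxb8 was at 21.4, 2.77, 1.66 and 4.06. Of 37 Toll-like receptor and interferon response genes, none a member, 3 were lower at 1h, 3 (Tlr2, Socs3 and Cd14) were higher at 1h, and 35 were higher at 48h. Of the 3 lower genes Isg15 lost its call on deposited TPM. Oasl1 and Tlr9 were the other 2, with means of 0.941 and 0.683 at 0h, 0.0689 and 0.0510 at 1h and 28.8 and 6.69 at 48h, which is a dip and gain below the level limit of the rule.

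The remaining lists had few members. FoxO target and quiescence genes had 1 member, Pik3ip1, an inhibitor of PI3K, at 2.17, 0.692, 1.40 and 5.33, and of 23 others 3 were lower (2 on deposited TPM) and 4 higher at 1h, and 13 higher at 48h. Circadian clock genes had Per1, and of 15 others 2 were lower and 2 higher at 1h. Both lower calls, of Bhlhe40 and Dbp, were lost on deposited TPM. Heat shock and stress response genes had Sesn2, and of 18 others 2 were lower at 1h, 1 (Hmox1) was higher, and 10 were lower at 48h. Both lower calls at 1h, of Ddit4 and Chac1, were lost on deposited TPM. Purine, pyrimidine and one-carbon synthesis genes had Prps2, and 29 of 31 others were lower at 48h. Ribosome biogenesis and DNA replication genes had no member, and 32 of 32 and 30 of 32 were lower at 48h.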

How the data were processed

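Genes were chosen, and the gene lists and role groups set, with earlier results of these data known. RNA was rRNA-depleted and made into single-end libraries with a kit that does not mark strand, and the authors mapped reads to mm10, using RSEM to give TPM. Per the labels, Trim Galore 0.6.2 and HISAT2 2.1.0 were also used. The authors merged technical replicates. The deposited TPM hold no read depth, and the sequenced reads that the study lists per library were not used here. Each library's TPM were divided by a median-of-ratios size factor over 11246 genes above 0 in all 12 libraries. All 55450 gene IDs matched GENCODE M21. Tests used limma 3.58.1 in R 4.3.3 with a trend, on log2(scaled TPM + 0.1) of 16212 genes with a mean of at least 0.1, so fold changes of low genes are understated. The fit was tested on simulated data. The named members were, per dip pattern, the 8 deepest with a 0h mean of at least 5, the 8 highest at 0h, the 8 highest at 48h relative to 0h, all members on a pathway list and 3 on each side of a threshold (1 of these genes is not reported here); the others in the text were named after their values were seen. The PCHi-C lists give a deposited score of at least 5 at 0h, merged from 2 replicates, and, at 1h, 12h and 48h, whole-number counts that the authors deposited with no stated unit, which were not used as values. Pairs listed in both directions were counted once, and a gene's interactions are those of captured fragments holding 1 of its GENCODE starts. Other scalings, pseudocounts, filters, thresholds and left-out libraries were tried. Hi-C was not analysed here.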

Additional observations from a re-analysis of the deposited data

How the results depend on the processing

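The set depends on scaling and thresholds. The rule gave 33 genes on deposited TPM, 101 when rescaled without the 20 most abundant genes, 61 with a 0h mean of at least 5, and 81 and 299 with dips of at most 0.4 and 0.6; leaving out a library gave 152 to 175, and 76 members stayed in all 12 such sets. Members halved at 1h only numbered 19, 68, 40, 57 and 205 under the same 5 settings (105 to 130 without a library). Those halved at 12h only numbered 10 on deposited TPM, 8 from a 0h mean of 5, 35 from a mean of 1, 11 and 48 at dips of 0.4 and 0.6, and 35 with 48h at 0.7 or more (22 to 31 without a library). Those halved at both numbered 4, 13, 13, 13 and 46 in the order given for the whole set, and 11 with 48h at or above 0h (17 to 24 without a library).

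Members called lower at 1h numbered 33 on deposited TPM, 57 with a pseudocount of 1 and 15 beyond a log2 change of 2 (81 to 112 without a library). At 12h the lower calls numbered 19, 20 and 4 (33 to 36). Higher calls at 48h numbered 59 with no fold limit and 10 beyond 2 (33 to 43). From 1h to 12h, 53 were higher with a pseudocount of 1 and 25 beyond 2 (72 to 82), and 12 were lower on deposited TPM, 13 with no fold limit and 1 beyond 2 (4 to 7, the 7 without replicate 2 of 12h). Other list genes at 1h numbered 39 higher and 27 lower on deposited TPM, and 10 and 21 beyond 2. At 12h, 33 were higher with a pseudocount of 1, and 28 higher and 83 lower beyond 2. The shares of all genes called under these settings are not given here, so the counts have no background beside them.

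Scores of at least 10 left a median of 1.00 interaction per member at 0h, and 1.00 for the genes at or above 2. Shares listed again at 1h, 12h and 48h were 82.8%, 81.2% and 77.5% within 10 kb, and 92.1%, 87.8% and 87.7% for scores of at least 10. Against all genes of the table the single-exon share of members was lower by 34.8 points (-34.8). For the settings listed here the cause was not tested. Whether the replicate numbers pair the libraries is not stated in the labels. Of 18 same-numbered pairs, 7 correlated above 0.1 (r from -0.0107 to 0.263). All 12 libraries had a higher mean r to their own number than to others. In 22 of 36 comparisons of a library with another time point, the highest r was with the same number. Across time points, replicate 3 libraries correlated at 0.0818 to 0.263 with each other and negatively with the rest. Replicate 3 libraries thus share some variation. Replicates 1 and 2 correlated across numbers too, such as 0h replicate 1 with 1h replicate 2 (0.0938) and with 1h replicate 1 (0.0774). Whether they are paired cannot be told from these values. The main fit left out a replicate block. With the replicate block 110 members were called lower at 1h and 36 higher at 48h.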
